A study of Mus musculus with 6 samples.

Results

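Genes of fat synthesis, fat sensing and fat storage were followed across liver cell types: Fasn, Acaca, Scd1, Scd2, Srebf1, Pparg, Ppara, Plin2, Plin3 and Dgat1. They were taken by gene symbol, and all 10 were found among the 19349 symbols listed. Each was read in hepatocyte-like, macrophage-like, endothelial-like and stellate-like cells, in the vehicle and the ginkgetin groups.

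Fatty acids are built in the cytosol from acetyl-CoA. Acetyl-CoA carboxylase (Acaca) and fatty acid synthase (Fasn) make saturated chains, stearoyl-CoA desaturases (Scd1, Scd2) introduce a double bond, and the transcription factor SREBP-1 (Srebf1) drives these genes. Diacylglycerol acyltransferase (Dgat1) completes triglyceride, which is kept in droplets coated by perilipins (Plin2, Plin3). The nuclear receptors PPAR-alpha (Ppara) and PPAR-gamma (Pparg) are activated by fatty acids, PPAR-alpha for burning fat in hepatocytes and PPAR-gamma for storing it in fat cells and lipid-laden macrophages.

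The cells were liver non-parenchymal cells, those other than hepatocytes, profiled by droplet single-cell RNA sequencing. Per the study's methods, the donors were male C57BL/6J mice, aged 8 weeks at the start and fed a high-fat diet for 24 weeks to give nonalcoholic steatohepatitis (NASH). During the last 8 weeks, mice of the vehicle group (3 libraries) were given DMSO into the stomach and mice of the ginkgetin group (3 libraries) ginkgetin, a plant biflavone, at 10 mg/kg/day. No chow-fed group was analysed here, so both groups share the diet, and the sources used here do not say whether a library is 1 animal or a pool. p-values therefore measure the spread between libraries only.

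The 6 libraries held 13128697 to 61796882 unique molecular identifiers (UMIs, counts of captured RNA molecules), and 27544 of 33168 barcodes passed the cell filter. Replicate 3 of both groups came with another set of cell barcodes and partly other gene symbols, so those libraries form a batch of 1 vehicle and 1 ginkgetin library. There were 258 barcode sequences that occurred in more than 1 library. Cells were clustered without the 10 genes and without the 84 pathway genes described last, and 10 of 13 candidate classes were named from their markers. Hepatocyte-like cells numbered 43, 105 and 225 in vehicle replicates 1 to 3 but 0, 11 and 175 in ginkgetin replicates 1 to 3, as leftovers of a preparation meant to remove them. Stellate-like cells numbered 24 to 73 per library. The other classes were larger, with 106 to 1366 macrophage-like cells and 416 to 3087 endothelial-like cells per library.

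Upstream sequence is shown for Plin2, Plin3 and Pparg because these were the members called in macrophage-like cells. RefSeq's table (GRCm38.p6) held 7 of the 10 members, with Dgat1, Scd1 and Scd2 missing, and Pparg had 3 starts, here A, B and C. UMI counts do not say which start was used. Each line gives the 250 bases before a start, 5′ to 3′ on the strand of the gene. Capitals mark CCAAT and the nuclear receptor half-site AGGTCA, searched on both strands, so that a match on the opposite strand appears as ATTGG or TGACCT.
Plin2, - strand, chr4:86670060-86670309: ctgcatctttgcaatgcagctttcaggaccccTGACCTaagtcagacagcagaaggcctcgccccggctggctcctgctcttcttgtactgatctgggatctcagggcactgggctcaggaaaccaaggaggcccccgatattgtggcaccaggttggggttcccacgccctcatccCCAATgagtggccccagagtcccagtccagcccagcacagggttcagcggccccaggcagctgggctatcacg
Plin3, - strand, chr17:56290512-56290761: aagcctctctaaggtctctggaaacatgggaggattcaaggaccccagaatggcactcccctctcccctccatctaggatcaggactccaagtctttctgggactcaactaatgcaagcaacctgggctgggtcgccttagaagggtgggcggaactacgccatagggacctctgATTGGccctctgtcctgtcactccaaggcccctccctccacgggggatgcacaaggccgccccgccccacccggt
Pparg start A, + strand, chr6:115360894-115361143: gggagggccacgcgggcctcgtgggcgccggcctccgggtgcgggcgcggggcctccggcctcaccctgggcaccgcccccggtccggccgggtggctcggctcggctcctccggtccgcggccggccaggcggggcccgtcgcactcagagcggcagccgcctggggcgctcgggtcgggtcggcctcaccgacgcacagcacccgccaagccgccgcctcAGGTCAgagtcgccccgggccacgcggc
Pparg start B, + strand, chr6:115362099-115362348: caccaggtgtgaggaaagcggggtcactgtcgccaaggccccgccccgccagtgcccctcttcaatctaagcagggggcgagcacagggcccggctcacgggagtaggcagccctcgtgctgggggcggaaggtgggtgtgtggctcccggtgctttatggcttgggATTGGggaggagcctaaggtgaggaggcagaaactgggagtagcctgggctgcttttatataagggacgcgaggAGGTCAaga
Pparg start C, + strand, chr6:115421816-115422065: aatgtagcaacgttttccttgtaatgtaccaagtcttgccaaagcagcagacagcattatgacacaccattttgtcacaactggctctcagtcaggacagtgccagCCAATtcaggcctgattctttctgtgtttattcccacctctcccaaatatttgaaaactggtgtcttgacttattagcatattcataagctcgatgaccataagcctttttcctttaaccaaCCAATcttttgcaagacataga
The Plin2 sequence held AGGTCA on the opposite strand, 218 to 213 bases before the start, and CCAAT 73 to 69 bases before it. Pparg starts A and B each held AGGTCA on the strand of the gene. Plin3 and Pparg start C held CCAAT only. Of 32851 such windows of 250 bases, 14% held AGGTCA and 33.8% held CCAAT, so both were frequent. None of the 11 windows of the 7 members held the pair of AGGNCA half-sites, 1 base apart, that PPARs bind with RXR (0.338% of windows), the sterol regulatory element TCACNCCAC (1.05%) or the E-box CACGTG (6.02%) on either strand. Each AGGTCA is also a match to a half-site of that pair. A match is a description of letters and not evidence of binding.

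Levels are given as counts per 1000000 UMIs of a class in a library (CPM), averaged over libraries. Because 3′ tag counts depend on each gene's transcript end, levels are compared for 1 gene across classes and not between genes. Scd1 was highest in hepatocyte-like cells, with 1830 CPM over 5 libraries, and was next highest in B cell-like cells with 321 ± 114 CPM (SD, n = 6). B cell-like Scd1 exceeded 230 CPM in every library, and the macrophage-like mean was 117 CPM. Scd2 had another order: it led in cholangiocyte-like cells (211 CPM) and was at 2.48 CPM in hepatocyte-like cells with vehicle. The ginkgetin value there rests on 2 UMIs in 1 library. The classes that followed differed by group. With vehicle they were macrophage-like (80.5 ± 22.3 CPM), endothelial-like (79.8 ± 30.6 CPM) and stellate-like cells (62.9 ± 12.6 CPM, SD, n = 3 each), which did not differ beyond their spread. With ginkgetin stellate-like cells came second (124 CPM).

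Plin2 led in hepatocyte-like cells (824 CPM) and macrophage-like cells (337 CPM), then stellate-like (146 CPM), cholangiocyte-like (135 CPM) and endothelial-like cells (133 CPM). The last 3 lay within the spread of their libraries. With vehicle the macrophage-like and stellate-like means were 523 and 159 CPM. With ginkgetin they were 151 ± 67.3 and 133 ± 57.4 CPM (SD, n = 3 each), within their spread. Ppara stood at 54.5 CPM in hepatocyte-like cells and at most at 2.44 CPM in the other named classes. Pparg was highest in macrophage-like cells (31.6 CPM), then in hepatocyte-like (17.2 CPM) and endothelial-like cells (13.1 CPM), and was below 5 CPM in the other classes. Srebf1 was highest in cholangiocyte-like cells (63.6 CPM), while Fasn and Acaca were highest in hepatocyte-like cells (100.1 and 28.4 CPM). Dgat1 stood at 33.9 CPM in NK cell-like cells and between 6.52 and 21.1 CPM in the rest, and Plin3 was lowest in NK cell-like cells (8.94 CPM). With vehicle Plin3 was highest in hepatocyte-like cells (91.5 CPM, with cholangiocyte-like cells at 80.6 CPM), and with ginkgetin in cholangiocyte-like cells (74.0 CPM). These orders describe clusters of the same cells and were not tested.

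**Figure D1:**
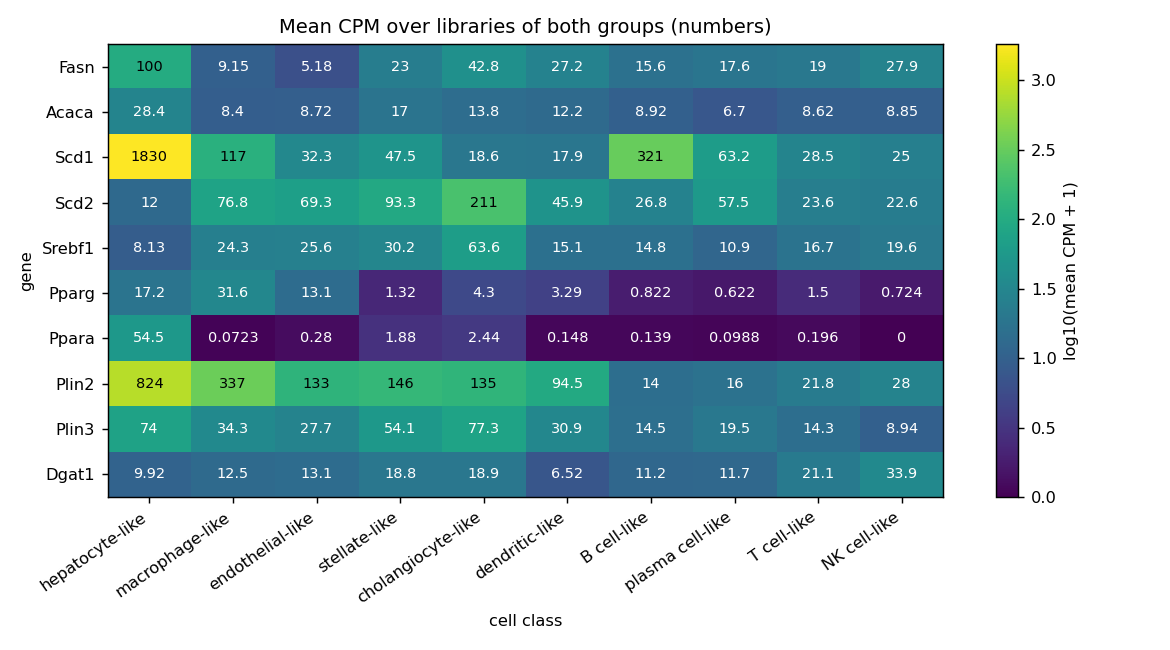
Mean CPM of each member (rows) in each of the 10 named cell classes (columns), over the libraries of both groups, with colour on a log10(CPM + 1) scale and the mean printed in each cell. Scd1 and Plin2 stand out in hepatocyte-like cells, Scd1 again in B cell-like cells, and Ppara is near 0 outside hepatocyte-like cells.

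The first comparison asks whether macrophages of treated mice carried less RNA of fat handling genes. Plin2, Pparg and Plin3 fell with ginkgetin, and no member rose. A gene was called when edgeR's quasi-likelihood test on UMIs summed per library gave a p under 0.05 after Benjamini-Hochberg adjustment together with a change of more than 2 times. Of 9 members tested 3 were called, where 13.6% of all 10177 genes tested were called.

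Plin2, the droplet coat protein of most cells, stood at 492, 456 and 621 CPM in vehicle replicates 1 to 3. With ginkgetin it stood at 134, 93.5 and 225 CPM. The lowest vehicle library was above the highest ginkgetin library, and replicate 3 was the highest of both groups. The log2 fold change was -2.26 (SE 0.30, adjusted p = 0.00474).

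Pparg stood at 55.7, 42.2 and 54.2 CPM in vehicle libraries and at 8.53, 14.9 and 13.8 CPM in ginkgetin libraries. The groups did not overlap, although the ginkgetin values rest on 3, 11 and 30 UMIs. Its log2 fold change was -2.46 (SE 0.24, adjusted p = 0.00241). Within the batches, the log2 ratio of CPM was -2.06 in replicates 1 and 2 and -1.98 in replicate 3 for Pparg, and -2.06 and -1.47 for Plin2.

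Plin3, a perilipin that moves between cytosol and droplets, stood at 36.5, 31.8 and 57.8 CPM with vehicle and at 25.6, 20.3 and 34.0 CPM with ginkgetin. The groups overlapped, because ginkgetin replicate 3 was above vehicle replicate 2. Its log2 fold change was -1.10 (SE 0.27, adjusted p = 0.0260), close to the fold limit. The call was lost without vehicle replicate 1 (adjusted p = 0.0582), vehicle replicate 2 (0.0506), ginkgetin replicate 2 (0.0853) or ginkgetin replicate 3 (0.0592), and without vehicle replicate 3 the log2 change fell short of the limit at -0.85.

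The synthesis genes were not called in macrophage-like cells. Scd1 ranged from 96.5 to 172 CPM with vehicle and from 82.4 to 135 CPM with ginkgetin (log2 fold change -0.61, 95% interval -1.17 to -0.06, adjusted p = 0.111). Scd2 ranged from 61.6 to 105 CPM and from 59.7 to 90.8 CPM (log2 fold change -0.59, adjusted p = 0.133). Srebf1, Fasn and Acaca had log2 fold changes of -0.58, -0.43 and -0.23 with intervals that include 0.

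Dgat1 was the single member with a higher estimate, at 8.11 ± 1.21 CPM with vehicle and 16.9 ± 7.79 CPM with ginkgetin (SD, n = 3 each). Its ginkgetin libraries, at 14.2, 10.8 and 25.7 CPM, all lay above the vehicle libraries, which reached 9.10 CPM. The test did not call it (log2 fold change 0.66, adjusted p = 0.168). Ppara had 1, 1 and 4 UMIs in the vehicle libraries and 0 in the ginkgetin libraries, and was too low to test. Counting Plin2, Pparg and Dgat1, 3 of 9 tested members did not overlap between groups, against 42.2% of all genes tested.

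Scaling matters here. Fold changes were scaled by TMM (trimmed mean of M values), which puts the median gene at a log2 change of 0.02, whereas scaling by library totals puts it at 0.53, a shift of 0.50. With totals, 91.1% of called genes were higher with ginkgetin, against 53.4% with TMM. Plin2 (log2 fold change -1.77) and Pparg (-1.94) were called either way. With totals Plin3 lost its call (-0.60, adjusted p = 0.173), Dgat1 gained one (1.17, adjusted p = 0.0414), and the signs of Fasn (0.09) and Acaca (0.28) turned.

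Other measures moved with the groups in macrophage-like cells. The median depth was 10658 UMIs per cell with vehicle and 2264.5 with ginkgetin. Different clusters held the class: clusters 1, 10 and 23 held most vehicle cells, with Trem2 leading in clusters 1 and 10, and clusters 16 and 29 held most ginkgetin cells. Clec4f and Vsig4, markers of resident Kupffer cells, led in clusters 16, 23 and 29. Cd5l, of the same marker list, led in clusters 1, 16, 23 and 29. Of the 10 macrophage markers, which include these, clusters 1, 10, 16, 23 and 29 passed 9, 6, 8, 9 and 9. Plin2 was at 478, 672 and 522 CPM in clusters 1, 10 and 23 and at 238 and 128 CPM in clusters 16 and 29. Endothelial markers summed to 0.00920% to 0.0127% of UMIs with vehicle and 0.0489% to 0.154% with ginkgetin, with all 10 detected in every library. Their part in the results was not tested, and a change per cell and a shift between kinds of cell within the class were not separated by a test. Within the clusters that held cells of both groups, Plin2 was also lower with ginkgetin, on few cells. In cluster 1 it was at 502 and 456 CPM in vehicle replicates 1 and 2 and at 125 and 38.2 CPM in ginkgetin replicates 1 and 2, from 19 and 61 cells. In replicate 3 it was at 687 and 171 CPM in cluster 10, the latter from 37 cells, and at 410 CPM (10 cells) and 233 CPM in cluster 16, vehicle first. Pparg in cluster 1 was at 46.6 and 42.1 CPM with vehicle and at 8.91 and 24.3 CPM with ginkgetin (1 and 7 UMIs), and in cluster 10 it was at 65.6 and 36.6 CPM, a smaller difference than in the class. Plin3 in cluster 1 was at 36.8 and 31.7 CPM with vehicle and at 17.8 and 24.3 CPM with ginkgetin (2 and 7 UMIs). It was at 57.0 and 54.9 CPM in cluster 10 and, with 1 vehicle UMI, at 20.5 and 30.6 CPM in cluster 16. Cluster 37, with 90 of its 92 cells from vehicle replicate 1 and led by Fcgr4, Cd300e and Clec4a3, had the highest macrophage-like Pparg, 348 CPM. Fcgr4 and Cd300e are also known from patrolling monocytes. Without it the Pparg change was -2.38.

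**Figure D2:**
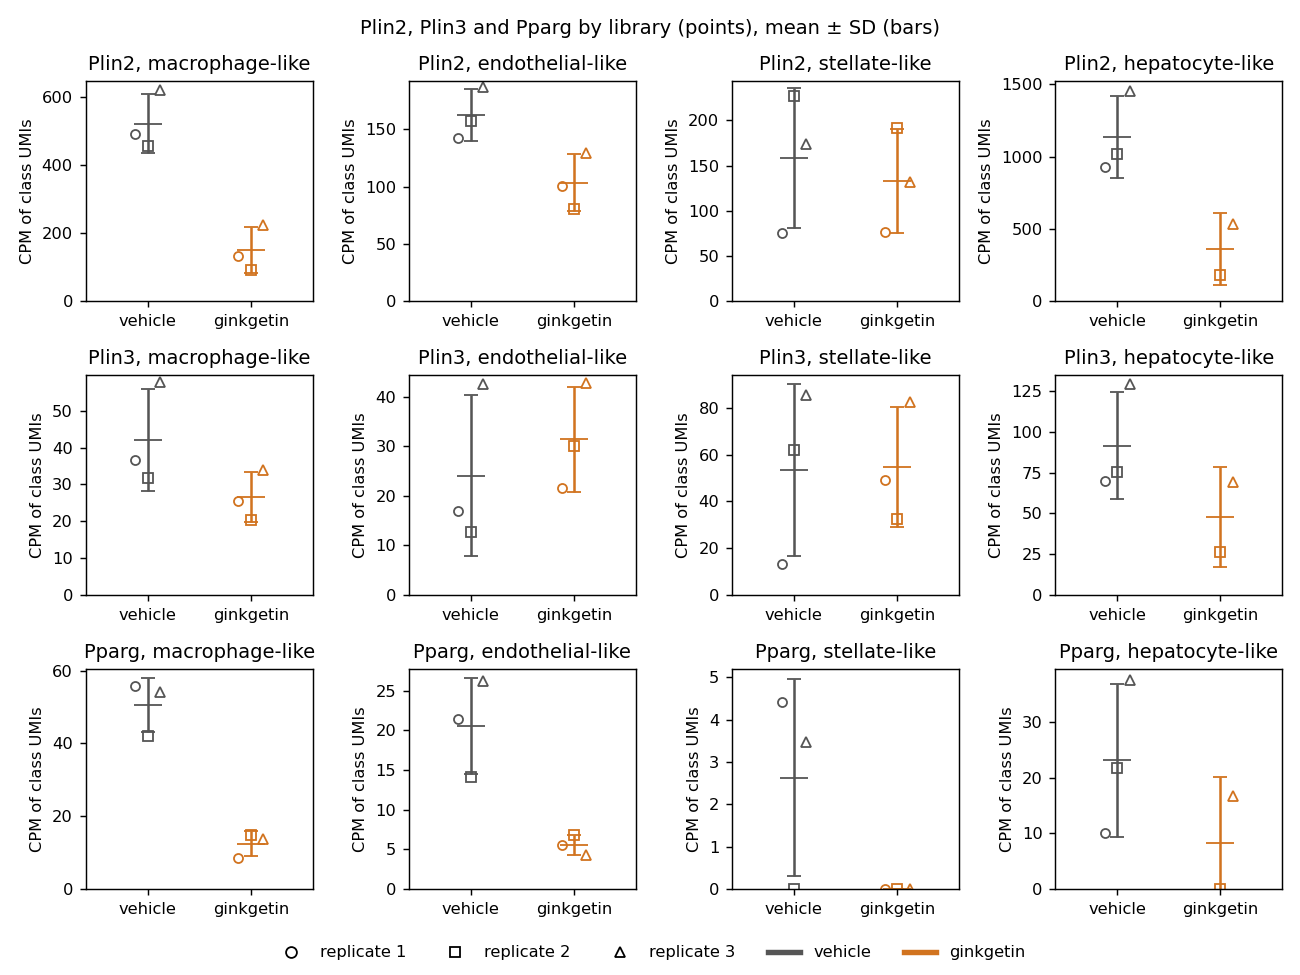
CPM of Plin2, Plin3 and Pparg (rows) in macrophage-like, endothelial-like, stellate-like and hepatocyte-like cells (columns), each point a library, the horizontal bar the group mean and the whiskers 1 SD (3 libraries a group, but 2 ginkgetin libraries for hepatocyte-like cells). Plin2 and Pparg of the groups are separate in macrophage-like and endothelial-like cells, and Plin3 overlaps in all but hepatocyte-like cells.

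In endothelial-like cells, which line the sinusoids, Pparg fell and no other member was called. That is 1 of 9 members tested, where 0.972% of 10084 genes were called. Pparg stood at 21.4, 14.1 and 26.2 CPM with vehicle and at 5.58, 6.85 and 4.30 CPM with ginkgetin. The groups were apart by more than the spread within either. Macrophage markers moved with the groups in these cells, at 0.0208% to 0.0406% of UMIs with vehicle and 0.00610% to 0.0179% with ginkgetin, and their part was not tested. At least 9 of the 10 were detected in each vehicle library and all 10 in each ginkgetin library. The log2 fold change of Pparg was -2.03 (SE 0.32, adjusted p = 0.0422), with log2 ratios of CPM of -1.52 in replicates 1 and 2 and -2.61 in replicate 3.

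This call was near its threshold. Leaving out any 1 of the 6 libraries ended it, with log2 fold changes from -2.28 to -1.75. The adjusted p was then 0.181, 0.0891 and 0.0879 without vehicle replicates 1, 2 and 3, and 0.161, 0.129 and 0.0692 without ginkgetin replicates 1, 2 and 3. Scaling by totals gave -1.90 with adjusted p = 0.0745. With the replicate number as a block the change was -2.09 (adjusted p = 0.00520), and 449 genes were called in place of 98.

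Endothelial-like Plin2 stood at 142, 158 and 187 CPM with vehicle and at 101, 80.2 and 129 CPM with ginkgetin. Every ginkgetin library was below every vehicle library. The change did not reach the call (log2 fold change -0.82, SE 0.18, adjusted p = 0.0972), and under the replicate block it passed on p (adjusted p = 0.0114) but not on the fold. Plin2 and Pparg were the 2 of 9 members whose groups did not overlap, against 18.8% of all genes tested.

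Scd1 varied widely in these cells, at 14.4, 39.4 and 88.6 CPM with vehicle and 4.18, 38.7 and 8.71 CPM with ginkgetin (log2 fold change -1.45, 95% interval -3.45 to 0.55). The range within each group was larger than the difference between the group means (47.5 ± 37.8 and 17.2 ± 18.8 CPM, SD, n = 3 each). Each ginkgetin library was below the vehicle library of the same number, with log2 ratios of CPM of -0.33 in replicates 1 and 2 together and -3.35 in replicate 3. The change was -2.97 without ginkgetin replicate 2 and -0.77 without vehicle replicate 3. Hepatocyte markers were 0.0210% to 0.0543% of UMIs here with vehicle and 0.00464% to 0.0519% with ginkgetin, and their part in Scd1 was not tested. Fasn (-1.03), Scd2 (-0.57), Acaca (-0.03), Dgat1 (0.03), Srebf1 (0.11) and Plin3 (0.24) were not called, and Ppara, with at most 7 UMIs in a library, was not tested. Vehicle cells fell mostly in clusters 5 and 15, with Fabp4 and Cd36 among their leading genes, and ginkgetin cells in clusters 0, 4 and 9, so the groups' cells differ in more than the members. Pparg was at 19.4 and 21.7 CPM in clusters 5 and 15 and at 5.45, 8.30 and 3.56 CPM in clusters 0, 4 and 9. Plin2 was at 146 and 150 CPM and at 91.9, 77.5 and 142 CPM, in the same order. A change per cell and a shift between kinds of cell within the class were not separated by a test.

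Whether the change differed between both classes was tested as an interaction, with each library giving both sums. Plin2 fell further in macrophage-like than was seen in endothelial-like cells, with a difference of -1.499 on the log2 scale (SE 0.27, adjusted p = 0.00583). Plin3 differed by -1.49 (SE 0.27, adjusted p = 0.00562), from log2 fold changes of -1.10 and 0.24. For Pparg the difference was -0.28 with a 95% interval of -1.07 to 0.51, so no difference was detected. Overall 9.21% of 11020 genes passed this test. With the cell filter read as UMIs per cell, the Plin2 difference was -1.001 (adjusted p = 0.0554) and the Plin3 difference -0.94 (adjusted p = 0.328).

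**Figure D3:**
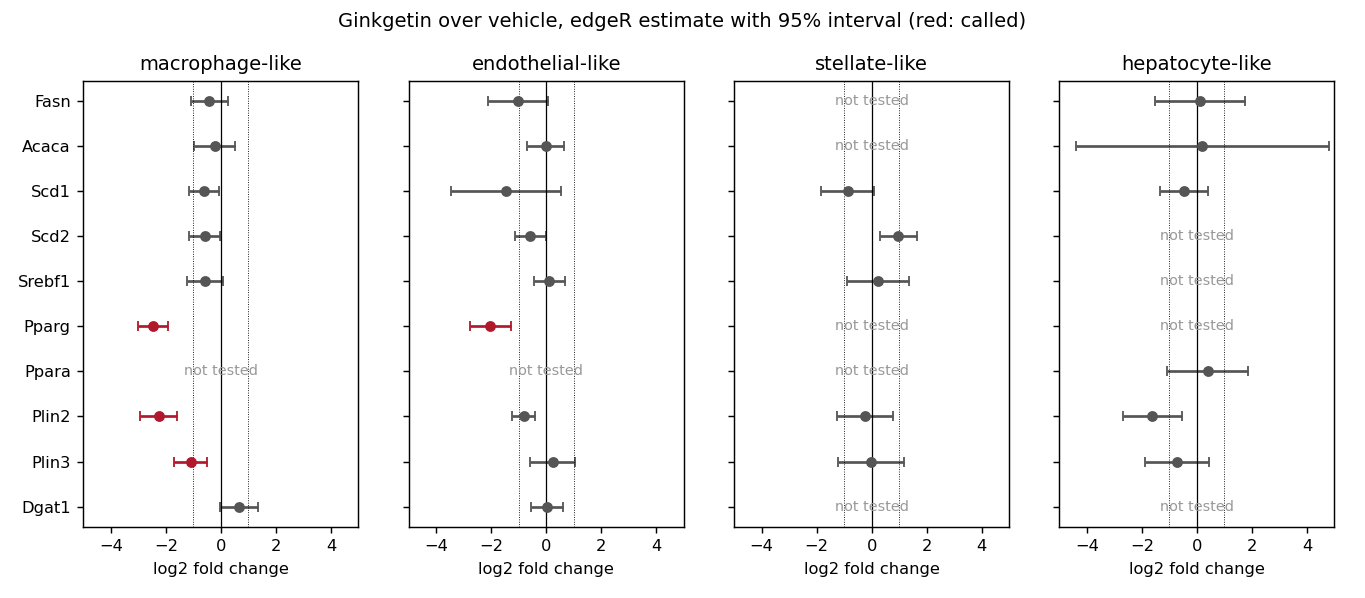
Log2 fold change of each member, ginkgetin over vehicle, in the 4 classes, as edgeR estimates (points) with 95% intervals (bars), red where called and with dotted lines at a fold of 2. Plin2, Pparg and Plin3 are called in macrophage-like cells and Pparg in endothelial-like cells.

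Hepatocyte-like cells, where Fasn, Acaca, Scd1, Ppara and Plin2 stood highest, came from the fewest libraries, since ginkgetin replicate 1 had none and replicate 2 had 11 cells. No member was called, and 0.138% of 3622 genes were. Plin2 stood at 931, 1018 and 1454 CPM with vehicle and at 183 and 535 CPM in ginkgetin replicates 2 and 3, the first from 7 UMIs. The groups were apart (log2 fold change -1.62, 95% interval -2.69 to -0.55, adjusted p = 0.192). With the barcode set as a term (-1.88, adjusted p = 0.0209) and with no filter on low counts (-2.10, adjusted p = 0.00221) it was called. It also passed with replicates 1 and 2 only (-2.45, adjusted p = 0.0210), but there 1 ginkgetin library of 11 cells remained, whose spread was not measured and was assumed to be that of the vehicle libraries.

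Plin3 also did not overlap, at 70.1, 75.1 and 129 CPM with vehicle and 26.2 and 69.3 CPM with ginkgetin (log2 fold change -0.73, 95% interval -1.90 to 0.44). Without ginkgetin replicate 3 the change was -2.01 for Plin3 and -2.82 for Plin2, and without vehicle replicate 3 it was -0.28 and -1.33. So 2 of 6 members tested were apart, against 37.2% of all genes tested. Scd1 stood at 1421, 1787 and 2874 CPM and at 1441 and 1627 CPM (log2 fold change -0.47, 95% interval -1.35 to 0.41), which overlap. Fasn (0.12), Acaca (0.20) and Ppara (0.39) had wide intervals, Fasn running from 20.02 to 177 CPM among vehicle libraries alone. Dgat1 (0 to 2 UMIs with vehicle, 1 and 6 with ginkgetin), Scd2, Srebf1 and Pparg were too low to test. Endothelial markers took 0.00395% to 0.0105% of UMIs with vehicle and 0.0576% to 0.147% with ginkgetin. The median depth of hepatocyte-like cells was 3360 UMIs with vehicle and 1394 with ginkgetin, with 10 of 373 and 46 of 186 cells under 1000 UMIs. The part of either was not tested.

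Stellate-like cells were named from markers of the collagen-making pericytes of the sinusoid. The class joined cluster 32, led by Dcn, Ecm1 and Cxcl12, and cluster 36, led by Gsn, Dcn and C3. These passed 10 and 6 of the stellate markers, and cluster 36 also 4 of the cholangiocyte markers. Cluster 36 held 42.9% of vehicle and 32.1% of ginkgetin cells of the class. Plin2 was at 227 CPM in cluster 32 and 49.4 CPM in cluster 36, and Scd2 at 107 and 84.3 CPM. The part of this mixture was not tested. In this class no member was called, and none of 4593 genes tested was either (0%). Still, 274 had an unadjusted edgeR p under 0.05, DESeq2 called 4 and the replicate block called 41. Scd2 stood at 48.5, 72.1 and 67.9 CPM with vehicle and at 105, 129.8 and 136.5 CPM with ginkgetin. All ginkgetin libraries were higher, by 0.97 on the log2 scale (95% interval 0.31 to 1.63), but the adjusted p was 0.724. It was the 1 of 5 tested members without overlap, against 12.2% of all genes. Plin2 overlapped widely, at 75.0 to 227 CPM and 77.0 to 192 CPM (log2 fold change -0.24, 95% interval -1.25 to 0.77). Scd1 had a log2 fold change of -0.86 (95% interval -1.82 to 0.10), and Srebf1 (0.24) and Plin3 (-0.01) had wide intervals that include 0. Fasn, Acaca, Pparg, Ppara and Dgat1 were too low to test. Macrophage markers took 0.0274% to 0.0322% of UMIs in these cells with vehicle and 0.00556% to 0.0147% with ginkgetin, with 9 to 10 and 6 to 10 of the 10 detected, and their part was not tested.

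Across all 10 named classes the mean of Plin2 was lower with ginkgetin. Its groups did not overlap in 7 of them, which besides the 3 above were T cell-like, B cell-like, dendritic-like and cholangiocyte-like cells. Of all genes passing the count filter, the share lower with ginkgetin without overlap was 10.2% in T cell-like, 9.19% in B cell-like, 10.3% in dendritic-like and 12% in cholangiocyte-like cells. In macrophage-like, endothelial-like and hepatocyte-like cells it was 8.08%, 6.01% and 19.3%. T cell-like cells had 34.7, 25.7 and 35.2 CPM with vehicle and 10.9, 11.2 and 13.1 CPM with ginkgetin. In dendritic-like cells the means were 127 ± 36.5 and 61.6 ± 28.4 CPM (SD, n = 3 each). These other classes were not tested. The 10 hepatocyte markers also summed to less in T cell-like cells, at 136, 488 and 771 CPM with vehicle and 24.6, 390 and 61.4 CPM with ginkgetin, and their part in Plin2 was not tested. Scd2 was higher with ginkgetin and apart in 5 classes, with cholangiocyte-like cells at 95.4, 98.6 and 97.6 CPM against 278, 303 and 391 CPM. The share of all genes apart in that direction was 8.47% there. It was 6.1% in stellate-like, 10.7% in plasma cell-like, 4.32% in T cell-like and 9.28% in dendritic-like cells, the other 4. For Pparg the mean was lower with ginkgetin in 8 of 10 classes. Its groups were apart in 3 of them, macrophage-like, endothelial-like and, at means of 2.42 and 0.567 CPM, T cell-like cells. The shares of genes apart in that direction in these classes are given above. For Acaca the mean CPM, which is scaled by library totals, was higher in all 10, with overlap in 9, while the TMM-scaled changes in macrophage-like (-0.23) and endothelial-like cells (-0.03) were below 0.

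**Figure D4:**
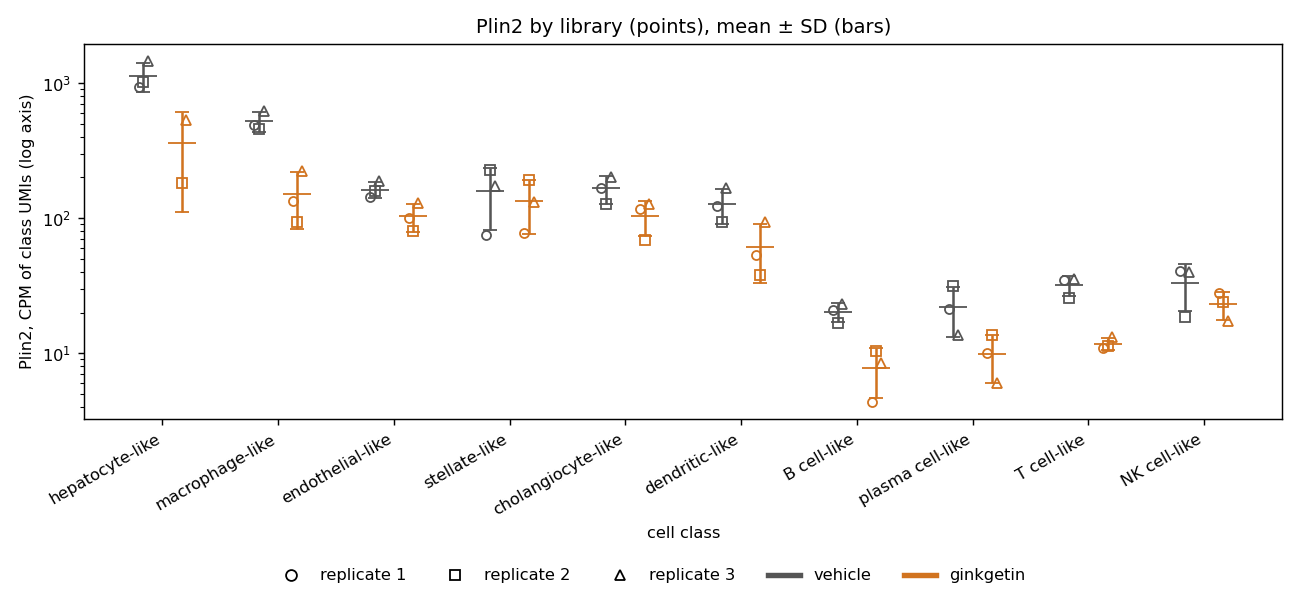
Plin2 CPM (log axis) in each library of the 10 named classes, with group means and 1 SD, vehicle in grey and ginkgetin in orange. The ginkgetin mean is below the vehicle mean in every class, and the groups overlap in stellate-like, plasma cell-like and NK cell-like cells.

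The share of cells with a UMI was read after thinning each cell to 1000 UMIs, as deeper cells show more genes. Plin2 was seen in 36.7% ± 5.48 of macrophage-like cells with vehicle and 14.9% ± 4.34 with ginkgetin (SD, n = 3 each), and in 88.6% and 34.6% without thinning. Pparg was seen in 4.49% ± 1.32 and 0.770% ± 0.511 of these cells, and in 36.1% and 3.52% without thinning. In endothelial-like cells the Plin2 shares were 14.1% ± 0.603 and 9.79% ± 2.28, or 44.8% and 32.4% without thinning. Pparg was seen in 2.24% ± 1.46 and 0.609% ± 0.0719 of endothelial-like cells, or 9.23% and 2.04% without thinning. The Srebf1 share of stellate-like cells was 2.62% ± 2.27 with vehicle and 5.74% ± 2.78 with ginkgetin, from 0 to 6 cells per library, and without thinning it was 22.5% and 19.04%, the other way round. The groups did not overlap in these 5 thinned cases. Two-sided exact permutation tests over libraries gave p = 0.10 for each, the smallest value that 3 against 3 allows, and adjusted p = 0.571 over 40 tests. The same p values came from 3 against 2 libraries for the hepatocyte-like shares of Plin2 (58.1% and 25.4%) and Dgat1 (0.155% and 5.32%, from at most 2 cells per library). Thinning left out 2 vehicle and 58 ginkgetin macrophage-like cells, and 7 vehicle and 6 ginkgetin endothelial-like cells.

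As a background, Plin2 was seen in 3.48% and 1.25% of thinned T cell-like cells and in 1.74% and 0.711% of B cell-like cells, at median depths of 3344 and 2908 UMIs and of 2773.5 and 2053 UMIs. Macrophage-like and endothelial-like shares were above these in both groups. Pparg was seen in 0.185% and 0.0806% of T cell-like cells, likewise below its share in macrophage-like cells.

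A wider list of 84 genes in 3 groups gave the setting: 30 of fatty acid and triglyceride synthesis, 30 PPAR partners and target genes, and 24 of droplet coat, storage and lipolysis. In macrophage-like cells 55 were tested, and 6 fell and 3 rose, or 16.4% called, near the 13.6% of all genes tested. Their median log2 change was -0.18, against 0.02 over all genes tested. Of the 21 PPAR partners and targets tested 4 fell and 2 rose, of the 21 synthesis genes 1 fell and 1 rose, and of the 13 droplet genes 1 fell. No test compared these groups.

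Angptl4, a secreted inhibitor of lipoprotein lipase, dropped from 15.02 ± 3.22 to 3.38 ± 1.05 CPM in macrophage-like cells (log2 fold change -2.52, SE 0.36, adjusted p = 0.00550). Lpl, that lipase itself, stood at 1756, 1976 and 2341 CPM with vehicle and 702, 1170 and 1612 CPM with ginkgetin (log2 fold change -1.29, adjusted p = 0.0212). The fatty acid transporter Cd36 went from 356 ± 44.0 to 167 ± 68.2 CPM (log2 fold change -1.57, adjusted p = 0.00817). The values of these 3 genes did not overlap between groups, although those of Angptl4 with ginkgetin rest on 1, 2 and 10 UMIs. In ginkgetin replicates 1 and 2 Angptl4 was at 2.84 and 2.71 CPM, under a floor of 3 counts (8.53 and 4.07 CPM).

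Acadl, an acyl-CoA dehydrogenase of fatty acid oxidation (-1.02), Agpat2, which makes phosphatidic acid (-1.47), and Abhd5, the coactivator of triglyceride lipase (-1.12), also fell. The ginkgetin values rest on 1, 6 and 14 UMIs for Agpat2 and on 1, 9 and 37 UMIs for Abhd5. Rxra, the partner receptor of the PPARs, rose from 59.3 ± 18.7 to 208 ± 47.6 CPM (log2 fold change 1.36). Acsl4, an acyl-CoA synthetase that prefers arachidonic acid (1.32), and the fatty acid transport protein Slc27a4 (1.29) rose too. Acsl4 and Angptl4 were called in all 18 and 17 alternatives fitted, and Cd36 and Rxra in all but the UMI reading of the cell filter. Under scaling by totals, the falls of Lpl (-0.79), Acadl (-0.52), Agpat2 (-0.95) and Abhd5 (-0.60) were no longer called.

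The other calls were near the limit and were lost in some fits without 1 library. In those fits the changes stayed of like size where the call was lost, at 1.10 to 1.34 for Slc27a4, -1.35 to -1.27 for Lpl and -1.42 to -1.38 for Agpat2. Other alternatives gave smaller changes, also without a call. With the UMI reading of the cell filter Lpl was at -0.35 and Slc27a4 at 0.87 (edgeR, adjusted p = 0.580 and 0.298). With the marker count per cell Agpat2 was at -0.90 (edgeR, adjusted p = 0.0837). Slc27a4 was called in 13 of 18 alternatives and not without replicate 1 or 2 of vehicle (adjusted p = 0.0506 and 0.0540) or replicate 3 of ginkgetin (0.0817). Lpl was called in 12 of 18 and not without replicate 1 or 2 of vehicle (0.0588 and 0.0869) or replicate 2 of ginkgetin (0.0675). Agpat2 was called in 12 of 17 and not without vehicle replicate 2 (0.0927) or ginkgetin replicate 3 (0.116). Acadl was called in 9 of 18 and Abhd5 in 7 of 17. Leaving out any 1 library but ginkgetin replicate 3 ended the call of Acadl, with adjusted p of 0.0268 to 0.0590 and, where that was under 0.05, a fold under 2. Leaving out any 1 library but vehicle replicate 3 ended that of Abhd5, with adjusted p of 0.0422 to 0.148.

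In endothelial-like cells 60 of the 84 were tested, 2 fell and none rose, or 3.33% called against 0.972% of all genes tested, and the median log2 change was 0.01 against -0.01 over all genes. Angptl4 stood at 13.5, 8.93 and 15.2 CPM with vehicle and at 0.349, 0.374 and 1.02 CPM with ginkgetin, the latter from 1, 3 and 9 UMIs. Its log2 fold change was -4.47 (SE 0.41, adjusted p = 0.00852). Hilpda, a hypoxia-induced droplet protein that inhibits triglyceride lipase, went from 61.1 ± 15.7 to 17.8 ± 2.56 CPM (log2 fold change -1.92, SE 0.23, adjusted p = 0.0247). Insig1, which holds back SREBP processing, had the lowest p of the synthesis genes, at 14.0 ± 4.30 and 63.1 ± 26.1 CPM (log2 fold change 2.10, adjusted p = 0.0738). It was called under the replicate block (1.94, adjusted p = 0.00210). The Angptl4 call was lost without replicate 1 or 2 of vehicle (adjusted p = 0.0870 and 0.0514) or of ginkgetin (0.0786 and 0.0571), with log2 changes of -4.61 to -4.21. The Hilpda call was lost without vehicle replicates 1, 2 or 3 (0.125, 0.0711 and 0.0562) or ginkgetin replicates 1 or 2 (0.108 and 0.125), with log2 changes of -2.06 to -1.85.

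**Figure D5:**
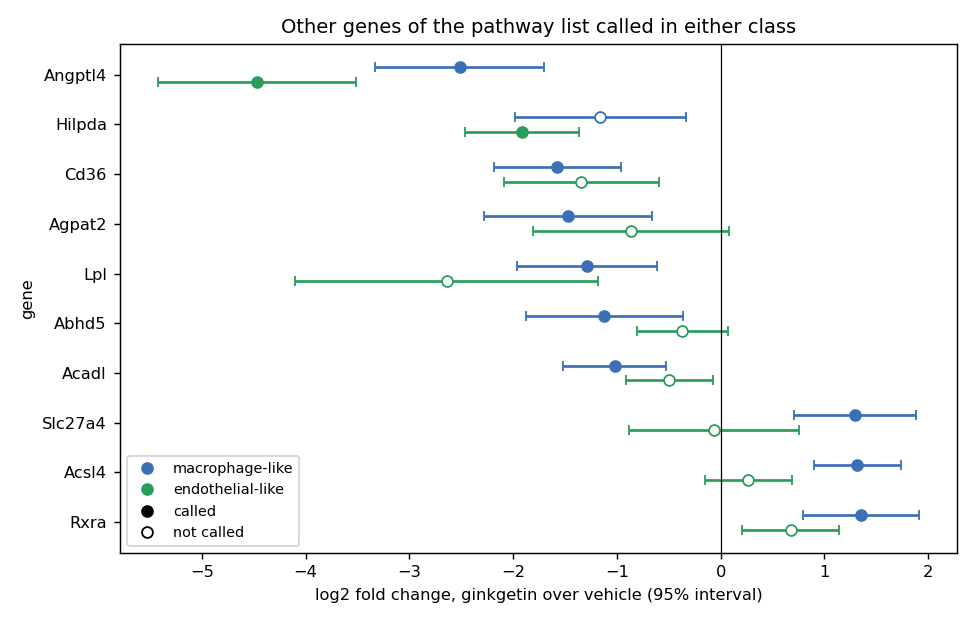
Log2 fold changes, ginkgetin over vehicle, with 95% intervals for the genes of the 84-gene list called in macrophage-like (blue) or endothelial-like (green) cells, filled where called in that class and open where not. Angptl4 is called in both classes, and Rxra, Acsl4 and Slc27a4 lie to the right of 0 in macrophage-like cells.

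In hepatocyte-like cells none of 51 tested was called. The 14 droplet genes tested had a median log2 change of -0.58 and the 21 synthesis genes 0.97, against -0.03 over all genes tested. Cidec, which fuses lipid droplets into large ones, had 18, 29 and 94 UMIs in the vehicle libraries and 0 in both ginkgetin libraries. Its relative Cidea had 4, 24 and 43 UMIs and 0. Against a floor of 3 counts over the ginkgetin group, they were at least 10.2-fold and 4.66-fold lower, with adjusted p of 0.0809 and 0.167. The droplet median stays at -0.58 with both genes at these bounds. Acss2, which makes acetyl-CoA from acetate, was at 15.02, 15.8 and 27.1 CPM with vehicle and 183 and 91.5 CPM with ginkgetin (log2 fold change 2.47, adjusted p = 0.120). The replicate block called no gene of any kind in this class in place of 5. In stellate-like cells none of 30 was called, and Acsl5 (-0.85), Ucp2 (-1.14) and Rxra (0.72) had the lowest unadjusted p-values.

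The genes whose pattern was most like that of a member were found by Pearson's r of log2(CPM + 1) over 59 sums of a class in a library, among 9975 genes. These sums share libraries and depth, so r is a description. Plin2 was most like Prdx1 (0.897), Mrpl27 (0.870) and Litaf (0.864), and Plin3 most like Idh2 (0.840), Tubb2a (0.797) and Ptov1 (0.796). Pparg was most like Hpgd (0.740), Rcan1 (0.727) and Atp6v1e1 (0.726). Ppara had the closest followers, Sult1b1 (0.928), Them7 (0.920) and Gls2 (0.916).

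Srebf1 was most like Clcn4 (0.896), Usp33 (0.866) and Ppard (0.863), and Scd2 most like Fos (0.839), Csnk1e (0.822) and Atp2a2 (0.815). Scd1 was most like Pxdc1 (0.756), Wfdc21 (0.750) and Apoa2 (0.728). Among the genes most like Fasn were Pcyt2 (0.721) and Acaca (0.705), and Acaca was most like Srr (0.712), Fasn (0.705) and Ttc38 (0.680). Dgat1 was most like Tecpr1 (0.737), H2-K1 (0.722) and Smc5 (0.714).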

How the data were processed

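The authors deposited raw UMI counts per gene and cell barcode, 1 table per library, from 10x Genomics libraries, and their processing notes name GRCm38 (mm10). The aligner and counter are not given in the sources used here. Total counts per library ran from 13128697 to 61796882 UMIs. The study's methods word the cell filter, 250 to 5000, as UMIs. Here it was applied to genes detected, a departure from that wording, with under 5% mitochondrial UMIs, and kept 27544 cells. Applied to UMIs, as an alternative, it kept 16821. Symbols with a UMI in both barcode sets (16150) were used.

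Counts were clustered with scanpy 1.11.5 (Python 3.11.15; 2000 variable genes without the members and the list, 30 components, Leiden resolution 1). No doublet caller was run, and the top 5% of cells by UMIs were left out in an alternative. Clusters were named where at least 3 of 10 markers passed (in 25% of cells and at a ratio of 2). The markers were fixed first, these limits after clusters were seen. Unnamed clusters held 13.3% to 20.8% of kept cells.

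Counts were summed per class and library with 10 or more cells and tested with edgeR 4.0.16 (R 4.3.3; quasi-likelihood test, filterByExpr, TMM). Genes passed, and are called here, where p after Benjamini-Hochberg adjustment was under 0.05 and the change more than 2 times. The interaction test between classes had a term per library. DESeq2 1.42.0 was an alternative. The scripts were tested on simulated data. Intervals are at 95%.

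The members and lists were chosen with earlier results of these data known. Named were all members, every called gene of the list (up to 10 a class, or the 3 of lowest unadjusted p in a class with fewer than 3 called), and the 3 genes most like each member, of which 1 is not reported here. Likeness used genes with a mean of 20 CPM or more in at least 1 class. Replicate numbers come from the labels. Deviations of same-numbered libraries correlated in macrophage-like (r = 0.194, 0.149 and 0.505), endothelial-like (0.430, 0.317 and 0.778) and stellate-like sums (0.433, 0.208 and 0.509), each over 0.1, the rule for taking numbers as pairs. Vehicle 2 correlated more with ginkgetin 1 than with ginkgetin 2 in macrophage-like (0.215) and endothelial-like sums (0.405), so among replicates 1 and 2 the number was not singled out there, while replicate 3, the other barcode set, stood apart. In hepatocyte-like sums 2 pairs remained (0.0958 and 0.342). The main fit of each class nevertheless had group as its only term, without pairs. Blocks by replicate number and by barcode set were run as alternatives. Floors and ratios cover counting error only.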

Additional observations from a re-analysis of the deposited data

Results flagged for a closer look

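Plin2 and Plin3 had effects of ginkgetin that differed between macrophage-like and endothelial-like cells, and the difference itself was tested with an interaction term. The Plin2 log2 fold change was -2.26 in macrophage-like cells and -0.82 in endothelial-like cells, and the fitted difference was -1.50 (edgeR, adjusted p = 0.00583). The Plin3 log2 fold changes were -1.10 and 0.24, and the fitted difference was -1.49 (edgeR, adjusted p = 0.00562). With replicates 1 and 2 only, the differences were -1.73 for Plin2 and -1.85 for Plin3 (edgeR, adjusted p = 1.01e-04 and 0.00314). With classes set by a count of markers per cell they were -1.51 and -1.29 (edgeR, adjusted p = 0.0219 and 0.0418), and neither passed with the cell filter read as UMIs, -1.001 and -0.94 (edgeR, adjusted p = 0.0554 and 0.328). Srebf1 passed with replicates 1 and 2 only, at -1.37 (edgeR, adjusted p = 0.0261), and not with all libraries, at -0.73 (edgeR, adjusted p = 0.117).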

How the results depend on the processing

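The fall of Plin2 and of Pparg in macrophage-like cells was called in 18 of 18 alternatives each, with log2 fold changes of -2.60 to -1.70 and -3.32 to -1.94. Plin3 was called there in 10 of 18, and Pparg in endothelial-like cells in 8 of 17. Of 481 fold changes of members under an alternative, 423 kept their direction and side of the threshold, 37 reversed, 17 lost and 4 gained a call. Of the alternatives, those on symbols of 1 barcode set, library totals and cluster 37 were chosen after seeing the data. In each case the cause was not tested. With the UMI reading, ginkgetin replicate 2 kept 9 hepatocyte-like cells, under the minimum of 10, so that fit had 1 ginkgetin library, assumed to vary like the vehicle libraries, as had the fits with replicates 1 and 2 only and without a ginkgetin library.

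Counts of called genes moved as follows. In macrophage-like cells (1385), the UMI reading gave 402, the marker count 655, totals 2226, and leaving out a library 554 to 1702. In endothelial-like cells (98), DESeq2 gave 303, the marker count 58, the replicate block 449, the barcode set block 463, replicates 1 and 2 only 338, symbols of 1 set 51, totals 30, and leaving out a library 0 to 44. In stellate-like cells (0), no filter gave 41, DESeq2 4, the marker count 1, leaving out the top 5% of cells 1, the replicate block 41, and leaving out a library 0 to 2. In hepatocyte-like cells (5), the UMI reading gave 17, RLE scaling 3, no filter 149, DESeq2 70, the marker count 1, leaving out the top 5% 3, the replicate block 0, the barcode set block 74, replicates 1 and 2 only 73, symbols of 1 set 0, totals 3, and leaving out a library 0 to 186. The difference between classes (1015 genes) fell to 344 with the UMI reading and 359 with the marker count. The replicate block changed no call of a member.

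Reversed log2 fold changes, none called before or after, were these. In macrophage-like cells Fasn was 0.0894 and Acaca 0.28 with totals, Acaca 0.10 with replicates 1 and 2, and Scd2 0.0145 with the UMI reading. In endothelial-like cells Acaca was 0.0150 with no filter, 0.17 with the marker count, 0.00307 with replicates 1 and 2 and 0.13 with totals. Plin3 in stellate-like cells was 0.0216 with totals. In hepatocyte-like cells Fasn was -0.49 with the UMI reading, -0.38 with no filter, -0.31 with the replicate block and -0.24 with the barcode set block, Acaca was -0.27, -0.14 and -0.14 with the last 3 and -0.12 without the top 5%, and Ppara was -0.0880 with no filter. Of the differences between classes, Scd1 was -0.47 and Dgat1 -0.10 with replicates 1 and 2, Scd2 0.38 with the UMI reading and Pparg 0.0456 with the marker count. Leaving out a library gave ranges across 0 for Acaca (-0.22 to 0.10), Dgat1 (-0.15 to 0.15) and Srebf1 (-0.00926 to 0.36) in endothelial-like cells, Acaca (-0.29 to 0.14) and Fasn (-0.37 to 1.06) in hepatocyte-like cells, and Plin2 (-0.60 to 0.10), Plin3 (-0.55 to 0.50) and Srebf1 (-0.13 to 0.72) in stellate-like cells.

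Counts of Ppara outside hepatocyte-like cells, of Fasn, Acaca, Pparg and Dgat1 in stellate-like cells, and of Pparg, Scd2, Srebf1 and Dgat1 in hepatocyte-like cells, were too low for a test, so differences there were not detectable.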

Other observations

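Some clusters passed too few markers to be named and entered no comparison, yet held Plin2 at levels like those of the named classes. A cluster of replicates 1 and 2 led by Plac8 and Lyz2 had Plin2 at 322 and 292 CPM with vehicle and at 82.7 and 49.5 CPM with ginkgetin. Its Pparg stood at 26.0 and 28.5 CPM with vehicle and at 15.9 and 20.8 CPM with ginkgetin. In replicate 3, a cluster led by Lyz2, Chil3 and Fn1, with Ccr2, the receptor that brings monocytes out of the marrow, had Plin2 at 351 CPM with vehicle and 176 CPM with ginkgetin. There Pparg was at 24.8 CPM with vehicle and 28.7 CPM with ginkgetin. A cluster with Vwf and Edn1, genes of vessel lining, had Plin2 at 55.8 and 78.3 CPM with vehicle and at 59.4 and 46.3 CPM with ginkgetin.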
